A study of Homo sapiens with 12 samples.

Results

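The comparison described here is cisplatin-treated against untreated H460 cells, an established human lung cancer line, and its members are the 2 arrays titled as cisplatin treatment of 12 arrays in all. Each is a 2-channel array: RNA of cells given 5 µM cisplatin for 24 h was in channel 1 and RNA of untreated H460 cells in channel 2, so each probe gives a treated-over-untreated log ratio. Cytarabine (0.2 µM), paclitaxel (5 nM) and cytochalasin D (0.2 µM), each for 24 h and on 2 arrays, were hybridised the same way round, and 5-fluorouracil (5-FU, 1 µM, 24 h) on 4 arrays, 2 in each orientation. All groups share the same line and untreated comparator, and no vehicle control is named. The labels do not tell whether the 2 cisplatin arrays hold RNA of different cultures. Nor do they tell whether one preparation of untreated RNA was used on several arrays. The p-values therefore measure only the spread between arrays of the same drug, pooled over the 8 arrays of one orientation. No array has cisplatin RNA in channel 2. That the ratio has channel 1 on top is likely rather than stated. It was chosen from the 5-FU arrays, where this reading puts MDM2 at 1.48 and CDKN1A at 2.49, and the median of 24 p53 targets at 0.22. The 5-FU means and the channel term given below come from the same arrays. The base of the logarithm is not given and was taken as 2; another base would rescale every ratio and leave the calls as they are.

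Cisplatin is a platinum drug that binds neighbouring purines in DNA and forms links within and between the strands. Cells meet such lesions with nucleotide excision repair, crosslink repair and bypass polymerases, and with a kinase cascade that stabilises the transcription factor p53. H460 cells carry wild-type p53, which switches on genes for growth arrest, repair, cell death and its own breakdown. NF-kB, a second stress-responsive factor family, drives cytokines and its own inhibitors.

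The arrays held 8170 probes, of which 5930 name 1 gene, 79 several and 2161 none. Averaging the probes of a gene left 7739 features, of which 5499 are named genes; the rest are single unnamed probes. The cisplatin arrays had values for 7644 and 7557 probes. Their log ratios correlated at r = 0.77 across the 7146 features measured on both (features are not independent replicates), and 95.5% of features differed by less than 0.5 between them. Labelled identity could not be tested from levels, since ratios hold none: of 7 epithelial genes only KRT18, a keratin, fell (-0.49), and of 13 tested markers of leukocytes, fibroblasts and endothelium only VWF rose (0.30). Both calls were lost whichever cisplatin array was left out. In RNA from whole cultures, fewer cells of a kind and less RNA per cell cannot be told apart.

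Under cisplatin 17 of 24 tested genes regulated by p53 rose, led by CDKN1A and MDM2, and 12 of 23 genes of the amino acid response fell. In limma's moderated test over the 8 arrays of one orientation, at a Benjamini-Hochberg adjusted p under 0.05, 564 of 7146 features rose (7.89%) and 716 fell (10%), which together make 1280 called (17.9%). The log2 ratio was at least 1, a 2-fold change, for 42 of the rises and -1 or lower for 101 of the falls; the medians were 0.43 over all rises and -0.52 over all falls. With a channel term, described below, there were 344 rises and 308 falls. A second comparison set cisplatin against the mean of the other 3 drugs in the same orientation, so that a channel effect common to these arrays cancels; 689 of 6931 features were higher under cisplatin (9.94%) and 401 lower (5.79%). The comparisons share the cisplatin arrays and are not independent. They called 383 features as raised in both (5.53%) and 186 as lowered in both (2.68%). The number of arrays limits these counts: 482 features were called against untreated cells without cisplatin replicate 1 and 462 without replicate 2, and against the other drugs 285 and 375. Of the 1280 calls, 306 (117 rises and 189 falls) stood whichever of the 2 cisplatin arrays was left out, and such calls are described below as held; a call lost without either array is one lost whichever was left out. With 1 cisplatin array left out, the estimate is the value of the other array, so the array values given for a gene also show its range.

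**Figure D1:**
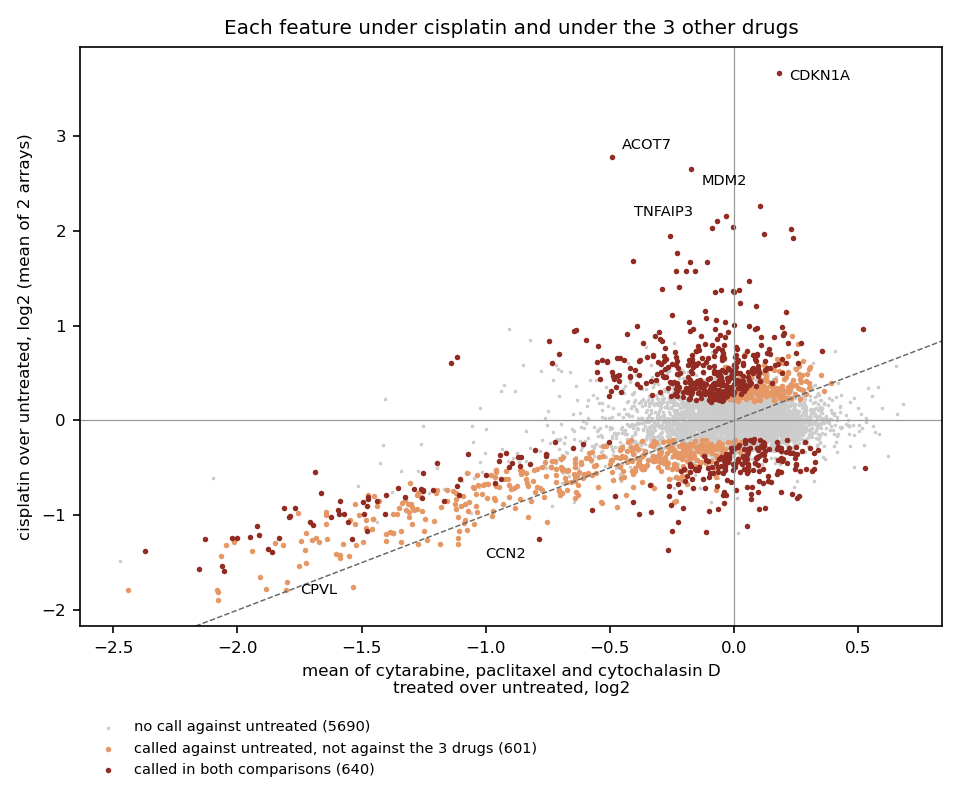
Log2 ratio over untreated cells under cisplatin (vertical, mean of 2 arrays) against the mean of cytarabine, paclitaxel and cytochalasin D (horizontal), 1 point per feature; the dashed line marks equal values. CDKN1A (3.66), ACOT7 (2.77), MDM2 (2.66) and TNFAIP3 (2.15) lie high on the vertical axis, with values of -0.49 to 0.18 on the horizontal one, whereas many of the features low under cisplatin, such as CPVL (-1.79 and -1.80), lie near the line of equal values.

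The rises and the falls differed in how they compared with the other drugs. All 37 of the 42 large rises that could be tested were higher under cisplatin than under the 3 other drugs (all features, 9.94%). These rises were picked for high cisplatin values that this comparison uses again, so the count is no independent support. The median log2 ratio over the 42 was 1.58 under cisplatin against -0.07 under the others. Of the 101 large falls, 92 could be tested: 6 were lower than under the other drugs, 21 were less low, and 65 passed in neither direction (all features, 5.79% lower and 9.94% higher). Their median was -1.25 under cisplatin and -1.57 under the other drugs, while the 47 with a 5-FU value had a 5-FU median of -0.00113. Only 46.5% of these falls have a 5-FU value at all, against 85.7% of the large rises. All the arrays with low values have treated RNA in channel 1, so for falls without values in both 5-FU orientations, treatment and channel cannot be told apart. A fit with a channel term, estimated from the 5-FU arrays, could be made for 27 of the large rises and 28 of the large falls and called 27 and 25 of them in the same direction; over all 4943 features it could be made for, it called 6.96% as raised and 6.23% as lowered.

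Genes regulated by p53 had the largest share of rises among the lists described here. Of 27 members on the arrays, 24 were tested, 17 rose and 0 fell, with a median log2 ratio of 0.66 against 0.00 over all features; 7.89% of all features rose and 10% fell. Against the other drugs 15 were higher and 0 lower (all features, 9.94% and 5.79%). The 5-FU arrays are outside that comparison. Their means ran from -0.71 for SESN1 to 2.49 for CDKN1A, with a median of 0.22 over the 24 members that had a value. None of these means was tested against cisplatin. The direction of the ratio was chosen so that MDM2, CDKN1A and this median are positive on the 5-FU arrays, so those signs are not a finding. The calls of 12 members held. TRIAP1 and GDF15 had no cisplatin value, and FUCA1 had 1 (-2.04).

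Of the 4 tested genes that feed back on p53, 3 rose (all features, 7.89%), MDM2 to the highest value. MDM2, the ligase that marks p53 for destruction, stood at 2.74 and 2.57 on the cisplatin arrays and between -0.39 and -0.04 on the 6 arrays of the other drugs. These groups did not overlap, which is no added evidence for a gene among the 12 largest rises. The 5-FU mean of MDM2 was 1.48, with a sign fixed by the choice of direction. Its difference from the cisplatin mean was not tested. The cisplatin mean of MDM2 was 2.66 (SE 0.10, adjusted p = 9.84e-05), a 6.30-fold rise, and 2.83 above the other drugs. PPM1D, a phosphatase that removes activating phosphates from p53 and its kinases, read 1.71 and 1.62 (mean 1.67, SE 0.13, adjusted p = 0.00059). Its 3 probes disagreed: they gave 0.08, 2.54 and 2.37, and the first was not called. CCNG1, cyclin G1, which recruits a phosphatase to MDM2, rose by less, with 0.74 and 0.53. It stood between -0.59 and -0.31 under the other drugs, so the difference from them (1.07, SE 0.08, adjusted p = 0.000635) was larger than that from untreated cells. SIAH1, another ubiquitin ligase, read -0.19 and -0.14 and was not called.

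The p53 element of 3 of these promoters is shown because MDM2, FAS and DDB2 are the called members whose window holds one. The p53 response element consensus is a pair of 10-base half-sites that reads the same on both strands, searched with the half-sites adjacent and at most 2 mismatches in 20 bases, in RefSeq windows (GRCh38.p14) from 250 bases before to 50 after each annotated start. Capitals mark the match, and up to 5 flanking bases are in lower case.
MDM2, chr12:68808918-68808947, plus strand: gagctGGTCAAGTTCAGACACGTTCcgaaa
FAS, chr10:88991304-88991333, plus strand: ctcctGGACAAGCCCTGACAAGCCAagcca
DDB2, chr11:47214964-47214993, plus strand: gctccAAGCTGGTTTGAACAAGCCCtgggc
All 3 lie within the annotated span of their gene, next to a start downstream of its first base; the match begins 94 bases before that start in MDM2, 122 before it in FAS and 5 before it in DDB2. The mismatch limit was set after matches were seen, so the counts that follow are descriptive and no test. A match was found in 3 of the 15 called p53 targets that have a window, in 0 of the 5 tested but not called, and in 0.82% of 27303 genes. It is a description of these letters and says nothing of the factor where there is none.

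The growth-arrest targets held the largest rise on the arrays. CDKN1A, the cyclin-dependent kinase inhibitor p21, read 3.12 and 4.20 under cisplatin and between 0.12 and 0.24 on the other 6 arrays. Every cisplatin value lay far above those 6, which is no added evidence for the gene with the largest rise. The 5-FU mean of CDKN1A was 2.49, with a sign fixed by the choice of direction. Its difference from the cisplatin mean was not tested. The cisplatin mean of 3.66 (SE 0.21, adjusted p = 0.000294) is a 12.6-fold rise. That SE rests on a spread shared by the 8 arrays of the fit, not on that of the cisplatin arrays alone. PLK3, a stress-responsive polo kinase, read 2.03 and 2.02, a mean of 2.03 (SE 0.05, adjusted p = 9.84e-05), and its 5 values under the other drugs ran from -0.31 to 0.20. SESN1, a sestrin that restrains mTOR signalling, read 1.79 and 2.06 (mean 1.92, SE 0.08, adjusted p = 0.00012), with 0.13 to 0.45 under the other drugs. Its 5-FU mean was -0.71; that difference was not tested. TOB1, an antiproliferative protein, read 0.15 and 0.14 and was not called.

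Of the 4 repair and nucleotide supply targets 3 rose (all features, 7.89%), among them DDB2 and XPC, which recognise lesions. DDB2, which finds helix distortions in chromatin, read 1.62 and 1.72 (mean 1.67, SE 0.07, adjusted p = 0.000121). XPC, which opens the nucleotide excision pathway at such lesions, read 1.40 and 1.76 (mean 1.58, SE 0.09, adjusted p = 0.000298). Under the other drugs DDB2 ran from -0.36 to 0.06 and XPC from -0.52 to 0.09. Neither gene's cisplatin values overlapped them, which is no added evidence for genes among the 12 largest rises. RRM2B, the p53-inducible ribonucleotide reductase subunit, read 1.35 and 1.60 (mean 1.47, adjusted p = 0.000362). POLH, a bypass polymerase for such adducts, read 0.13 and -0.21 and was not called.

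Of the whole nucleotide excision repair list, 14 genes, all tested, 3 rose (all features, 7.89%) and 0 fell. The third was RPA2, a subunit of the single-strand binding complex, at 1.17 and 0.91 (mean 1.04, SE 0.10, adjusted p = 0.00113), with -0.18 to 0.11 under the other drugs. The remaining 11, among them ERCC3, ERCC4, ERCC5, ERCC6 and ERCC8, did not pass, and the list median was 0.10. LIG1, the ligase that seals the repaired strand, read 0.20 and 1.02: it was not called (adjusted p = 0.0561) but was at 1.02 without cisplatin replicate 1 (adjusted p = 0.0088).

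In the crosslink repair, recombination and bypass list, 2 of 16 genes rose and 0 fell, a share near the 7.89% of all features. REV3L, the catalytic subunit of polymerase zeta, read 0.66 and 0.56, and its call held. BARD1, the partner of BRCA1, read 0.75 and 0.51; without cisplatin replicate 1 its adjusted p was 0.052. FANCC and MRE11 were above the other drugs by 0.41 and 0.66 without a call against untreated cells (-0.18 and 0.15); the difference was lost for FANCC without either cisplatin array and for MRE11 without replicate 1 (adjusted p = 0.06). Among 13 mismatch and base excision repair genes EXO1 (0.52) and FEN1 (0.75), 2 nucleases, rose and PMS2 (-0.33) fell. The fall of PMS2 was lost without either cisplatin array, and with the channel term FEN1 was at 0.36 (adjusted p = 0.094). Of 13 damage-signalling genes 0 rose. ATM, the apical double-strand break kinase, fell to -0.71 and -0.86 but stood between -1.69 and -1.16 under the other drugs, so it was 0.62 above them, a difference lost without cisplatin replicate 1 (adjusted p = 0.079). WEE1, which restrains entry into mitosis, read -0.82 and -1.10, and its call was lost without cisplatin replicate 2 (adjusted p = 0.061).

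Of 8 tested death genes controlled by p53 6 rose and 0 fell (all features, 7.89% and 10%), with FAS in the lead. FAS, the death receptor, read 1.16 and 1.60 (mean 1.38, SE 0.11, adjusted p = 0.000609) against -0.20 to 0.25 under the other drugs. BBC3 (PUMA), a BH3-only protein, read 0.73 and 0.66, and EI24, an endoplasmic reticulum protein, 0.94 and 0.64. PMAIP1 (NOXA), another BH3-only protein, read 0.83 and 0.51, and without cisplatin replicate 1 its adjusted p was 0.059. CYFIP2 (0.47) lost its call without either array, and the decoy receptor TNFRSF10C (0.40) without replicate 2 (adjusted p = 0.053). The death receptor TNFRSF10B (0.28) and TP53I3 (0.33), an oxidoreductase, did not pass. Of the targets with other roles, NINJ1, an adhesion molecule (0.64), and TGFA, a growth factor (0.54), rose, and the cytokine LIF (0.39) and the esterase CES2 (0.26) did not pass. NINJ1 lost its call without cisplatin replicate 2 (adjusted p = 0.095), and TGFA without either array.

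**Figure D2:**
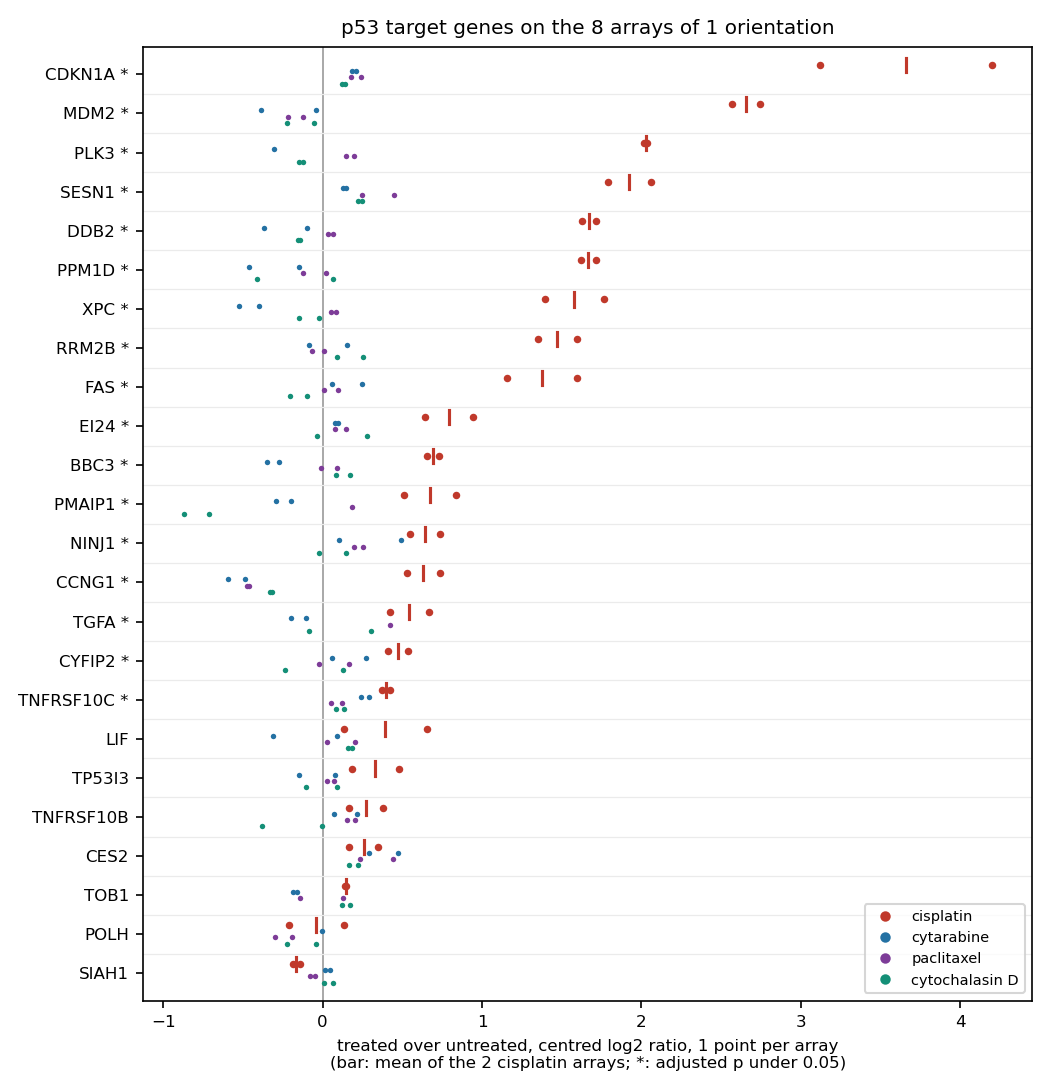
Log2 ratio of treated over untreated cells for the 24 tested p53 targets, 1 point per array and drug (2 cisplatin arrays in red, 6 arrays of the other drugs); bars are the means of the cisplatin arrays and asterisks mark an adjusted p under 0.05. The cisplatin points of CDKN1A, MDM2, PLK3, SESN1, DDB2, PPM1D, XPC, RRM2B and FAS all lie above 1, whereas no point of another drug on the plot reaches 1.

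The wider apoptosis list was mixed: of 25 tested genes 8 rose and 4 fell (all features, 7.89% and 10%), and 4 of the rises are the p53 targets FAS, BBC3, PMAIP1 and TNFRSF10C. TNFRSF12A, the receptor for TWEAK, read 0.82 and 0.91 (mean 0.86, adjusted p = 0.00148) and was 1.16 above the other drugs. CASP5, an inflammatory caspase, fell to -0.86 and -0.80, with -1.12 to -0.60 under the other drugs. The anti-apoptotic gene BCL2 read -0.73 and -0.44, and without cisplatin replicate 1 its adjusted p was 0.096. CASP8 (0.68) lost its call without either cisplatin array.

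NF-kB targets rose in part, led by TNFAIP3, with 5 rises without cisplatin replicate 1 and 4 without replicate 2. Of 24 members 23 were tested, 8 rose and 1 fell (all features, 7.89% and 10%), and the list median was 0.10; against the other drugs 8 of 21 were higher and 0 lower (all features, 9.94% and 5.79%). TNFAIP3 (A20), a ubiquitin-editing inhibitor of the pathway, read 2.00 and 2.30 (mean 2.15, SE 0.08, adjusted p = 9.84e-05), a 4.45-fold rise. It stood between -0.36 and -0.25 under cytarabine and paclitaxel and at 0.51 and 0.58 under cytochalasin D. Among the secreted ligands, IL6 read 1.17 and 1.55 (mean 1.36, SE 0.09, adjusted p = 0.00044), and its values under the other drugs stayed between -0.20 and 0.02. CXCL8 (interleukin 8), which attracts neutrophils, read 0.86 and 1.02, whereas all 6 arrays of the other drugs were between -0.996 and -0.24. It was 0.94 above untreated cells and 1.59 above the other drugs. PLAU, the urokinase protease, read 1.10 and 1.02 (mean 1.06, adjusted p = 0.000936). The 5-FU means were 0.56 for TNFAIP3, 0.47 for IL6, 0.44 for CXCL8 and 0.56 for PLAU, which were not tested against cisplatin.

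Smaller rises were called for SOD2, mitochondrial superoxide dismutase (0.40), RELA, a subunit of NF-kB (0.58), the chemokine CCL20 (0.28) and CFLAR, an inhibitor of caspase 8 (0.20). None of these held: SOD2 lost its call without cisplatin replicate 2 (adjusted p = 0.1) and the other 3 without either array. LTB, lymphotoxin beta, fell to -1.37 and -1.93 but was between -2.23 and -1.57 under the other drugs and did not pass against them (0.26, adjusted p = 0.394). NFKB1, the p105 subunit, read -0.10 and -0.02; it was 1.19 above the other drugs, where it stood between -1.77 and -0.97, and that call was lost without either cisplatin array. CXCL10 (-0.01), CXCL3 (0.10), ICAM1 (0.03) and VCAM1 (-0.03) were not called.

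The windows of IL6, CXCL8 and TNFAIP3 are shown because these genes were among the leading NF-kB rises and carry the motif searched, GGNNNTTCC, on either strand (both for the symmetrical one in CXCL8). PLAU, which rose more than CXCL8, had no match. The first pair is the 150 bases before the start, the third a stretch within the TNFAIP3 gene that begins 67 bases before an annotated start with its first match; capitals mark matches (RefSeq, GRCh38.p14, plus strand).
IL6, chr7:22727050-22727199: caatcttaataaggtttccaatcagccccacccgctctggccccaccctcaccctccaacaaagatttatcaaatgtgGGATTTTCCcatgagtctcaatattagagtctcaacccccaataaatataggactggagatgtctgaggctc
CXCL8, chr4:73740419-73740568: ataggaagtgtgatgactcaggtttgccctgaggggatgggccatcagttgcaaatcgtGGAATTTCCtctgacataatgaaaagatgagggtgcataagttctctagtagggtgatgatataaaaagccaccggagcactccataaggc
TNFAIP3, chr6:137867188-137867216: ctttGGAAAGTCCcgtGGAAATCCCcggg
The motif occurred in 6 of the 9 called members with a window, among them LTB, which fell, and in 9 of the 11 tested but not called. It was in 23.5% of 27303 genes, so its presence did not separate the called members of the list from the rest.

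Immediate early and stress regulators, genes that respond within minutes to growth factors and stress, were also raised in part. Of 17 members 16 were tested, 7 rose and 3 fell (all features, 7.89% and 10%), with a median of 0.35. FOSL2, an AP-1 subunit, read 1.55 and 1.99 (mean 1.77, SE 0.15, adjusted p = 0.000921), and its 2 probes gave 2.07 and 1.47. RGS2, a brake on G-protein signalling, read 1.74 and 1.62 (mean 1.68, SE 0.06, adjusted p = 9.84e-05). It was low under every other drug, between -0.50 and -0.32, and at -0.72 under 5-FU. KLF10, a zinc finger factor of TGF-beta signalling, read 1.42 and 1.30 (mean 1.36, adjusted p = 0.000875). IER3, an early response gene that modulates survival, read 1.11 and 1.20 (mean 1.15, adjusted p = 0.000363); its 5-FU mean was 1.60. EGR1, a zinc finger factor, read 0.72 and 0.88, with -0.23 to -0.05 under the other drugs.

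The rise of the nuclear receptor NR4A1 (0.63) was lost without cisplatin replicate 1 (adjusted p = 0.054) and that of SRF (0.51), the serum response factor, without either array. KLF4 (-0.30), DUSP6 (-0.45), a phosphatase of ERK, and SGK1 (-0.36), a kinase, fell, and all 3 calls were lost without either cisplatin array; with the channel term SGK1 was at -0.06. DUSP6 and SGK1 were lower still under the other drugs, at -0.89 and -1.07 on average. JUNB, IER2, EGR3, DUSP2, DUSP4 and DUSP5 were not called.

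**Figure D3:**
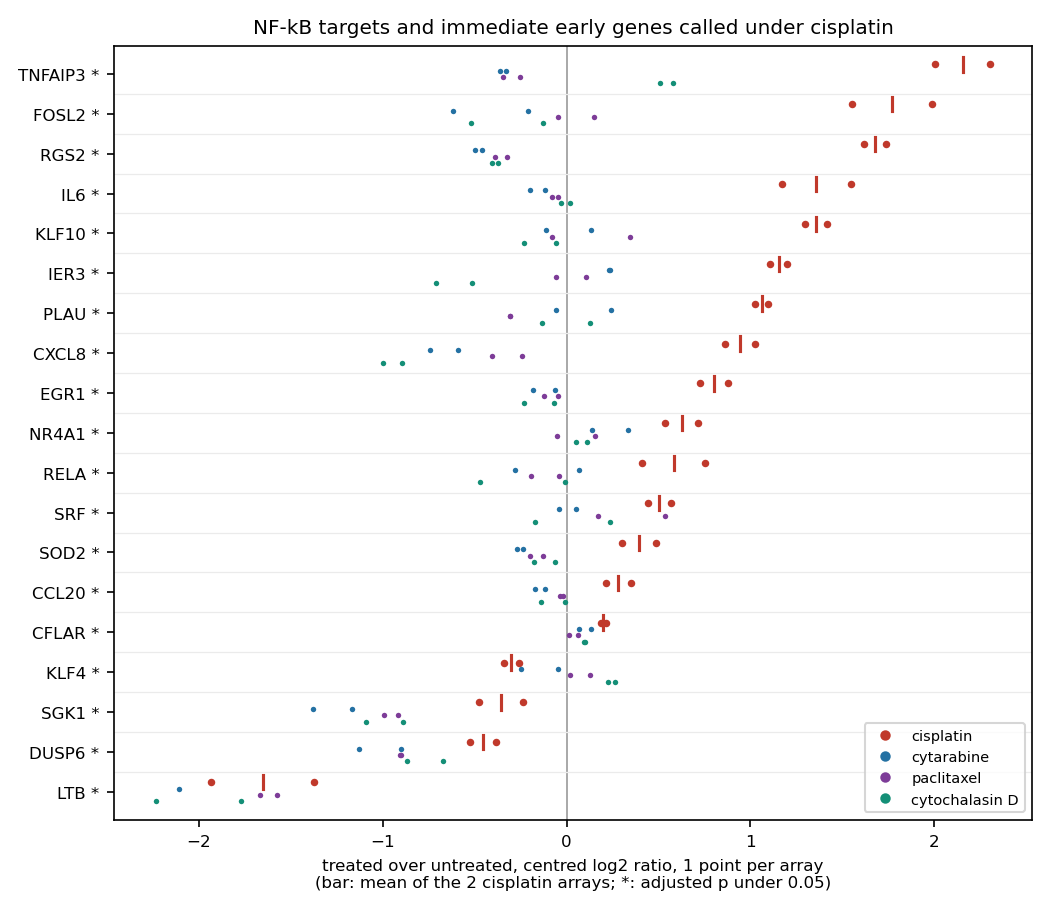
Log2 ratio of treated over untreated cells for the called NF-kB targets and immediate early genes, 1 point per array; bars are the means of the 2 cisplatin arrays. For TNFAIP3, FOSL2, RGS2, IL6, KLF10, IER3 and PLAU the cisplatin points lie above 1 and all other points below it, whereas for LTB the points of all 4 drugs lie below -1.

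Among the large rises outside these lists, ACOT7, an acyl-CoA thioesterase, was second only to CDKN1A among named genes. With 1 cisplatin array left out it could not be tested. It read 2.87 and 2.67 (mean 2.77, SE 0.08, adjusted p = 0.000931), a 6.83-fold rise. The other drugs gave it 3 values, -0.47, 0.22 and -1.22, and 5-FU none. TXNIP, which binds thioredoxin and limits glucose uptake, read 1.93 and 2.16 (mean 2.04, SE 0.09, adjusted p = 0.00012), with -0.29 to 0.10 under the other drugs and 0.02 under 5-FU. MTF1, the metal-sensing factor that controls metallothionein genes, read 1.59 and 1.56 (mean 1.58, SE 0.08, adjusted p = 0.000166). The only metallothionein measured, MT1X, read 0.16 and 0.20 and was not called. ADM, the vasodilator peptide adrenomedullin, read 1.56 and 1.42 (mean 1.49, adjusted p = 0.00141) and could not be tested against the other drugs.

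Genes of the amino acid response, which ATF4 controls when amino acids are short or proteins misfold, fell in number. Of 24 members 23 were tested, 0 rose and 12 fell (all features, 7.89% and 10%), with a median of -0.25. Fewer falls were called when either cisplatin array was left out. Against the other drugs 5 were lower and 0 higher (all features, 5.79% and 9.94%). SLC7A11, the cystine carrier that feeds glutathione synthesis, read -1.07 and -1.26 (mean -1.16, SE 0.06, adjusted p = 0.000236), against -0.45 to -0.10 under the other drugs. ASNS, asparagine synthetase, read -0.79 and -0.92 (mean -0.86, SE 0.07, adjusted p = 0.00059), below its values of -0.55 to -0.25 under the other drugs. PYCR1, which makes proline, read -0.65 and -0.63, with -0.10 to 0.41 under the other drugs. The 5-FU means of these 3 genes were lower than their cisplatin means, at -1.52, -1.93 and -1.78; the differences were not tested.

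EPRS1 and NARS1, transfer RNA synthetases, had means of -0.87 and -0.59. They were low under the other drugs too, from -0.77 to -0.41 and from -0.63 to -0.25. The channel term turned EPRS1 to 0.09, left PYCR1 without a call at -0.62 (adjusted p = 0.27) and moved ASNS to -1.36. The 5 falls that held were SLC7A11, ASNS, PYCR1, EPRS1 and NARS1; CEBPB (-0.55) and SLC7A5 (-0.50) were lost without either cisplatin array. ATF4 itself read -0.29 and -0.20 (mean -0.25, adjusted p = 0.0241), a call lost without either array, and DDIT3 and TRIB3, its partners in the stress response, were not called (0.08 and -0.15). The site of ASNS is shown because ASNS was among the falls that held and its window has a match to TGATGNAA, a composite site for ATF4 and C/EBP factors, searched on both strands (RefSeq, GRCh38.p14, minus strand, capitals mark the match).
ASNS, chr7:97872464-97872481: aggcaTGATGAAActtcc
This motif was in 5 of the 10 called members with a window, in 5 of the 9 tested but not called, and in 4.46% of genes.

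Of 16 genes that carry platinum or make its thiol partners 15 were tested, 1 rose and 4 fell, where 7.89% and 10% of all features did. Of these calls 1 held, and with the spread taken from the cisplatin arrays alone 2 falls were called. SLC31A1, the copper carrier through which cisplatin can enter cells, read -0.26 and -0.29 (mean -0.28, SE 0.05, adjusted p = 0.0133). The export pumps ABCC3 (-0.62) and ABCC4 (-0.28) were called lower, and ABCC2 (-0.11), which exports platinum conjugates, and the copper pump ATP7A (0.14) were not called. GSS, the last enzyme of glutathione synthesis, was 0.28 higher. The calls of SLC31A1, ABCC3, ABCC4 and GSS were lost without either cisplatin array, and with the channel term SLC31A1 was at -0.16 (adjusted p = 0.2). GCLM, a subunit of the first enzyme of glutathione synthesis, held at -0.53 and -0.50, but its probes gave -1.002 and -0.03. Against the other drugs 1 of 14 was lower, ABCC3, and 1 higher, GSS (all features, 5.79% and 9.94%). GCLM stood between -0.47 and -0.30 under those drugs. ABCC4 averaged -0.85 under cytarabine, -0.58 under paclitaxel and 0.19 under cytochalasin D. SLC31A1 averaged -0.03, 0.10 and -0.29 under the same 3 drugs. In the NRF2 and redox list, 3 of 13 rose, the others besides TXNIP being ALDH3A1, an aldehyde dehydrogenase (0.86 and 1.07), and SOD2, and 2 fell, TXNRD1, thioredoxin reductase (-0.73 and -0.87), and GCLM. TXNRD1 was low under the other drugs too, from -0.82 to -0.29.

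Of 34 G1 and S phase genes 9 rose and 2 fell, where 7.89% and 10% of all features did; with the channel term 5 of 29 rose, and without cisplatin replicate 1 and without replicate 2 the rises numbered 2 each. MCM7, a helicase subunit, read 0.79 and 0.55 (mean 0.67, adjusted p = 0.00283), and its probes gave 0.09 and 1.26. TK1, thymidine kinase, read 0.60 and 0.82, and lost its call without replicate 2. Under cytarabine TK1 read 0.79 and 0.73. RFC5, a clamp loader subunit (0.62), lost it without replicate 1 (adjusted p = 0.057), and CDC25A, the G1 phosphatase (0.63), without either. Of 23 genes of G2 and mitosis 3 rose and 4 fell, shares nearer to those of all features. KIF2C, a microtubule-depolymerising kinesin, read 1.02 and 0.92 (mean 0.97, SE 0.10, adjusted p = 0.00145), above its range of 0.25 to 0.82 under the other drugs. TOP2A, topoisomerase II alpha, read -0.82 and -0.59 (mean -0.71, adjusted p = 0.00153), with -0.61 to -0.48 under the other drugs. AURKB, the kinase of chromosome segregation (-0.54), lost its call without either array.

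Of 30 tested genes of matrix, adhesion and TGF-beta signalling 10 fell and 2 rose (all features, 10% and 7.89%); with the channel term 6 of 21 fell, and without cisplatin replicate 1 and without replicate 2 the falls numbered 4 each. The sister genes CCN1 and CCN2, matricellular proteins induced by tension and growth factors, went in opposite directions. CCN2 (CTGF) read -1.23 and -1.28 (mean -1.25, SE 0.06, adjusted p = 0.000166) and CCN1 (CYR61) 0.59 and 0.63 (mean 0.61, SE 0.05, adjusted p = 0.000936). Under cytochalasin D, which depolymerises actin, both were low: CCN2 at -1.95 and -1.96, CCN1 at -1.39 and -1.46. With the channel term CCN1 was at 1.32 and not called (adjusted p = 0.056). FN1, fibronectin, read -0.73 and -0.58, ITGA2, an integrin, -0.62 and -0.96, and TGFBR1, a TGF-beta receptor, 0.80 and 0.84. ITGA2 lost its call without cisplatin replicate 2 (adjusted p = 0.054), and TGFBR1 without either array. Of 16 glycolysis and hypoxia genes 7 fell, against 10% of all features, and with the channel term 3 of 13. Of 15 tested against the other drugs, 1 was lower and 2 were higher (all features, 5.79% and 9.94%). The 2 that rose against untreated cells were ADM and the hypoxia factor EPAS1 (0.56), whose call was lost without cisplatin replicate 1. The falls ran from -0.27 for PFKP, a phosphofructokinase, to -0.71 for HK1, hexokinase 1; only 2 and 1 falls were called without cisplatin replicate 1 and without replicate 2.

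Zinc finger genes named ZNF, a large class of DNA-binding factors, had 18 rises and 1 fall among 82 tested, where 7.89% of all features rose and 10% fell; the list median was 0.07. With the channel term 8 of 54 rose. Without cisplatin replicate 1 and without replicate 2, 8 rose in each case, and 5 rises held: ZNF282 (1.09 and 0.91), ZNF230 (1.04 and 0.85), ZNF217 (0.65 and 0.72), ZNF184 (0.59 and 0.77) and ZNF200 (0.77 and 0.58). The probes of ZNF184 gave 0.28 and 1.09. Against the other drugs 19 ZNF genes were higher and 3 lower (all features, 9.94% and 5.79%). ZNF581, the one that fell (-1.15 and -0.82), was at -1.36 on average under the other drugs. Related zinc finger genes can share sequence, and how far their probes tell them apart was not tested.

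**Figure D4:**
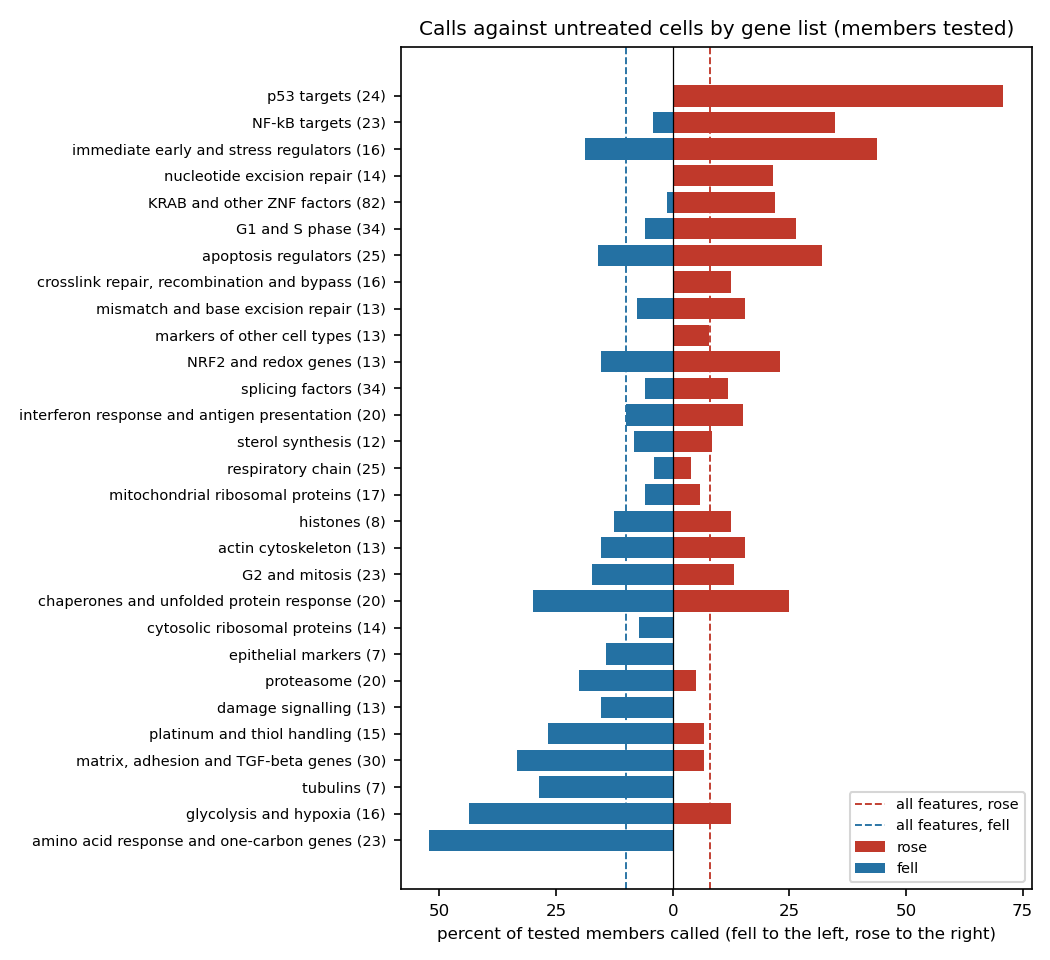
Share of the tested members of each gene list (number in brackets) that rose (red, to the right) or fell (blue, to the left) against untreated cells; dashed lines mark the shares over all 7146 features, 7.89% and 10%. The p53 targets have the longest bar to the right (17 of 24) and the amino acid response genes the longest to the left (12 of 23).

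The remaining lists had few calls or calls both ways, to be read against 7.89% rising and 10% falling over all features. Chaperones were split, 5 up and 6 down of 20: DNAJA1, a partner of HSP70, read 0.61 and 0.82, and HSPD1, the mitochondrial chaperonin, -0.57 and -0.69. With the channel term HSPD1 was at -0.25 (adjusted p = 0.17). Of 20 interferon and antigen presentation genes 3 rose and 2 fell. TAP1, a peptide transporter, read 0.55 and 0.63, and IFI16, a DNA sensor, 0.59 and 0.54. Of 14 cytosolic ribosomal protein genes 0 rose and 1 fell, of 25 respiratory chain genes 1 rose and 1 fell, and of 17 mitochondrial ribosomal protein genes 1 rose and 1 fell. Proteasome genes had 1 rise and 4 falls of 20, splicing factors 4 and 2 of 34, histones 1 and 1 of 8, tubulins 0 and 2 of 7, actin genes 2 and 2 of 13, and sterol synthesis genes 1 and 1 of 12. The reference genes ACTB and TUBB read -0.28, called lower, and 0.16, not called.

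Most of the 12 largest falls had no called difference from the other drugs. CRP, C-reactive protein, read -2.55 and -2.23 (mean -2.39, SE 0.11, adjusted p = 0.00177), and only 1 array of the other drugs had a value for it, -2.66. ADAM12, a membrane metalloprotease, read -2.05 and -1.73, and from -2.73 to -1.66 under the other drugs. CPVL, a carboxypeptidase, read -1.99 and -1.59 against -2.13 to -1.56, and CEP63, a centrosome protein, -1.95 and -1.63 against -2.74 to -1.69. The ranges overlapped for all 3, and none passed against the other drugs (differences of 0.19, 0.02 and 0.29). KMT2E, a chromatin reader, read -1.63 and -1.54 and was 0.47 less low than under the others (adjusted p = 0.0114), a call lost without either cisplatin array.

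No difference from the other drugs was called for MXD1, a MYC antagonist (-1.81), the chemokine XCL1 (-1.78), IRF9, a factor of interferon signalling (-1.70), or LTB (differences of 0.10 to 0.26). The 2 cisplatin arrays of IRF9 lay far apart, at -1.20 and -2.20. SPHK1, sphingosine kinase 1 (-2.41 and -1.42), OLIG2, a neural factor (-1.76 and -1.74), and CAPN5, a calpain (-1.88 and -1.16), had too few values under the other drugs to be tested against them, and these 3 genes and CRP could not be tested with 1 cisplatin array left out. Of these 12 genes, ADAM12, CPVL, CEP63, SPHK1, OLIG2 and CAPN5 had a 5-FU value, from -0.11 to 0.52.

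**Figure D5:**
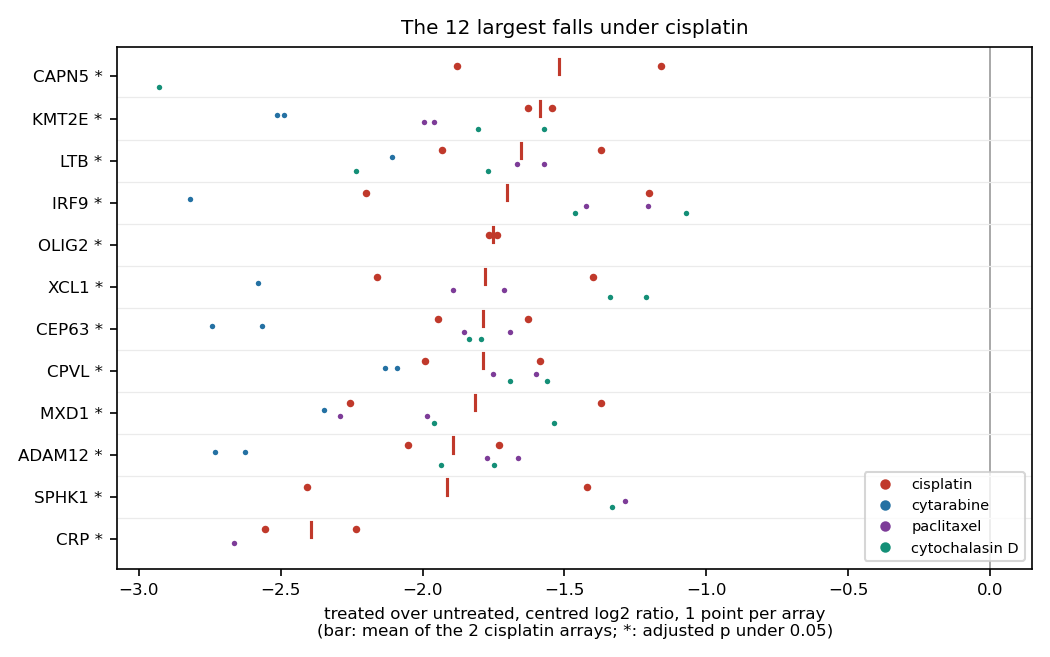
Log2 ratio of treated over untreated cells for the 12 largest named falls under cisplatin, 1 point per array that had a value; bars are the means of the 2 cisplatin arrays. All points of all 4 drugs lie below -1, and OLIG2 has none from the other drugs.

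Falls that set cisplatin apart from cytarabine, paclitaxel and cytochalasin D, here the other drugs, were fewer. The 5-FU arrays are outside that comparison and were not tested. Their means were -1.30 for OGT, -1.07 for PYGB, -0.88 for AHNAK and -0.87 for UNC5B. They were 0.15 for TBL1X, -0.05 for AQP7 and -0.04 for PLEC, and KCNE4, SLC6A6 and AKAP8L had no 5-FU value. KCNE4, a potassium channel subunit, read -0.87 and -0.97 (mean -0.92, SE 0.06, adjusted p = 0.000494) against -0.07 to 0.35, and was 1.04 below the other drugs (SE 0.07, adjusted p = 0.000633). PYGB, brain glycogen phosphorylase, read -0.68 and -0.96 against -0.10 to 0.74. AHNAK, a giant scaffold protein, read -0.84 and -0.71 against -0.20 to 0.87. The cisplatin values of these 3 lay below all values under cytarabine, paclitaxel and cytochalasin D, and the calls of all 3 held in both comparisons. These 3 genes were picked among the 10 largest differences from those drugs, so the lack of overlap is no added evidence. The 5-FU means of PYGB and AHNAK were lower than their cisplatin means, differences that were not tested. AQP7, a water and glycerol channel, read -0.46 and -0.55 and was 1.03 below the others, where it stood between 0.30 and 0.93; its call against untreated cells was lost without either cisplatin array. UNC5B, a netrin receptor, read -1.04 and -0.83 and lost its call without cisplatin replicate 1 (adjusted p = 0.06), and the channel term, which rests on 1 pair of 5-FU arrays for it, turned it to 0.52. OGT, the enzyme that adds N-acetylglucosamine to proteins, read -1.64 and -1.10, and TBL1X, a corepressor subunit, -1.02 and -1.22; both calls against the other drugs were lost without either cisplatin array. SLC6A6, the taurine carrier (-0.62 and -0.90), was 0.95 below the other drugs, and lost both of its calls without either array. AKAP8L, a nuclear anchoring protein, and PLEC, the linker plectin, were 0.998 and 0.98 below the other drugs without a call against untreated cells (-0.38 and -0.49); without cisplatin replicate 1 PLEC was called at -0.83 (adjusted p = 0.011). Under cytarabine they stood high, AKAP8L at 1.37 and 1.24 and PLEC at 0.97 and 1.002.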

How the data were processed

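The arrays compared drug-treated with untreated H460 RNA, 1 ratio per probe. The values are the authors' deposited normalized log ratios, read as log2, a base that no source used here states. Image analysis, background correction, normalization, dyes and array annotation beyond the platform's probe table were not given in the sources used here. Medians as deposited lay, over the 12 arrays, between 0.00162 and 0.0252. The median of each array was subtracted, and probes of a gene were averaged. limma 3.58.1 (R 4.3.3) fitted 1 mean per drug on the 8 arrays of one orientation, with no channel term and Benjamini-Hochberg adjustment over all features tested; every adjusted p comes from this fit or, where named, from an alternative. Features needed values on both cisplatin arrays. The 2 arrays per drug set the precision, and depth does not apply. The scripts were tested on simulated data. The members and gene lists were chosen with earlier results of these data known; the p53 mismatch limit was set after matches were seen. Named genes are all members of the p53, NF-kB, platinum, excision and crosslink repair lists (those not described singly are counted), the 12 largest rises and falls, up to 6 called members of other lists and the 10 largest differences each way from the 3 drugs. BCL2, SRF, KLF4, DUSP6, SGK1, JUNB, IER2, EGR3, DUSP2, DUSP4, DUSP5, ATF4, SLC7A5, DDIT3, TRIB3, CCN1 and PFKP fall outside this rule and were chosen after their values were seen. 5-FU was set beside cisplatin without a test.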

Additional observations from a re-analysis of the deposited data

How the results depend on the processing

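The number of calls against untreated cells (1280) changed by more than 1.5 times in 1 setting besides leaving out a cisplatin array: with the channel term it was 652 (344 rises and 308 falls of 4943 features tested), of which 428 were also called without the term; the term could be estimated for fewer features. Among the genes named it reversed EPRS1 (0.087) and UNC5B (0.52), each resting on 1 pair of 5-FU arrays; the cause was not tested. It was not applied to the comparison with the other drugs, where it cancels, and cisplatin arrays alone cannot give that comparison. Leaving out 1 array in turn gave 462 to 1275 calls against untreated cells and 285 to 1193 against the other drugs (1090). The remaining alternatives gave 1098 (cisplatin arrays alone) to 1342 (single probes) calls and 981 (arrays scaled) to 1154 (all 5 drugs) calls. With the replicate number as a block there were 1199 calls (532 rises and 667 falls) and 988 (644 higher and 344 lower); the numbers do not pair the arrays, since same-numbered replicates deviated together with correlations of -0.05 to 0.09 across 6519 features. Lists that lost members by more than 1.5 times with the channel term were G1 and S phase rises (5), matrix falls (6), glycolysis falls (3) and ZNF rises (8). The ratios hold no signal over background, so what dimness limits could not be examined.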
